A study of Mus musculus with 10 samples.

Results

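Expression of DNA replication and mitosis genes was examined in cultured murine leukemia stem cell lines. The gene set was a list of 45 cell cycle genes, 25 that act in DNA replication and 20 that act in mitosis, with 1 probe set per gene, the one whose mean over the 10 arrays was highest. Of these, 44 had a probe set annotated with a single gene symbol, among 18194 genes in all, and the cyclin gene Ccnb1 was not analysed here. That left 25 replication and 19 mitosis genes. All 44 lay above the array median on all 10 arrays, so none depended on the filter on low values that left 11993 genes for testing.

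Each culture was profiled once on an array that reports log2 intensities. SGC0946, an inhibitor of the histone methyltransferase Dot1l, was given at 1 µM for 4 days to RH-RAS lines 1 and 3. These lines thus have a treated and an untreated array each. The series also has 3 NUP98-JARID1A lines, transformed by that fusion gene, and 1 line transformed by the fusion MLL-AF9. The controls are 4 independently derived RH-RAS lines without treatment. RH-RAS cells coexpress DNMT3A with the R882H mutation and NRAS-G12D, so treated and untreated RH-RAS cells carry both. All lines grew in Opti-MEM with serum and stem cell factor. The sources used here name no vehicle, no array batches and no way in which the genes were introduced, and the labels do not say whether the NUP98-JARID1A lines were derived separately.

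A dividing cell licenses its origins in G1 by loading the MCM helicase with Cdc6 and Cdt1, fires them with Mcm10 and the GINS complex, and copies DNA with polymerases that the clamp Pcna holds on the template. Mitosis follows under cyclins with Cdk1, the Aurora and Polo kinases, the spindle checkpoint and the spindle motors. Replication genes are known targets of E2F factors in late G1, while many mitosis genes are held by a CHR element, often beside CCAAT boxes, and are transcribed in G2.

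The promoters of both classes differed in these letters. In the RefSeq table of assembly GRCm38.p6, which gives 250 bases before and 50 after each gene's start, 36 of the 44 members had an entry. There was none for Mcm4, Gins1, Gins2, Pole, Ccne2, Ccna2, Aurkb or Tpx2. E2F-type letters were TTCCCGC, with the variants TTGGCGC, then TTCGCGC, and lastly TTGCCGC, on either strand. They stood in 14 of 20 replication promoters (70.0%) and 2 of 16 mitosis promoters (12.5%), beside 19.04% of 9699 tested genes with an entry and 10.9% of all 27025 genes in the table. CHR-type letters were TTTGAA on either strand and the palindrome TTCGAA. They stood in 4 of 20 replication promoters (20.0%) and 13 of 16 mitosis promoters (81.25%), beside 16.4% of tested genes and 21.7% of all genes. CCAAT on either strand stood in 12 replication promoters (60.0%) and 14 mitosis promoters (87.5%), beside 42.5% of tested and 41.1% of all genes. A match is a description of the letters and no evidence that a factor binds.

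The 150 bases just before the start of 7 members are printed to show both patterns, chosen after their values were seen, with matches in capitals. Among replication genes, Mcm6 (chr1:128359706-128359855, minus strand) holds overlapping E2F-type matches at 2 places and passed no test below. Pola1 (chrX:93632156-93632305, minus strand) and Rrm1 (chr7:102441545-102441694, plus strand) hold E2F-type matches and were lower in NUP98-JARID1A lines.
Mcm6: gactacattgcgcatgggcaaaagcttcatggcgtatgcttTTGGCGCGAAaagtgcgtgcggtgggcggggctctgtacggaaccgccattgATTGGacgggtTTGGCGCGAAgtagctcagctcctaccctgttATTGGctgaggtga
Pola1: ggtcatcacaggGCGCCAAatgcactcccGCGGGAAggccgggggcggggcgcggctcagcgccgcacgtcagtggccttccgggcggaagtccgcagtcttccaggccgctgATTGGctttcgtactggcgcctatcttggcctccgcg
Rrm1: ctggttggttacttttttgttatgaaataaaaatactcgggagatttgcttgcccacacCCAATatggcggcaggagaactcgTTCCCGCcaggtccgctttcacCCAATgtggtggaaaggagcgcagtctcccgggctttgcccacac
Among mitosis genes, Kif11 (chr19:37376232-37376381, plus strand), Cdc20 (chr4:118437344-118437493, minus strand) and Top2a (chr11:99024190-99024339, minus strand) hold CHR-type and CCAAT letters and were lower in NUP98-JARID1A lines. Cdk1 (chr10:69352913-69353062, minus strand) holds E2F-type, CHR-type and CCAAT letters and passed no test.
Kif11: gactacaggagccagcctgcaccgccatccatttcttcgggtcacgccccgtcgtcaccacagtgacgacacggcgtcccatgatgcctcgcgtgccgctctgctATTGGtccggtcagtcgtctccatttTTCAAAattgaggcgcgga
Cdc20: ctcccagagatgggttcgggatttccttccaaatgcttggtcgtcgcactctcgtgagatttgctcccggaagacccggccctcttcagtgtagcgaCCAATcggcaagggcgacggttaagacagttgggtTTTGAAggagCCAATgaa
Top2a: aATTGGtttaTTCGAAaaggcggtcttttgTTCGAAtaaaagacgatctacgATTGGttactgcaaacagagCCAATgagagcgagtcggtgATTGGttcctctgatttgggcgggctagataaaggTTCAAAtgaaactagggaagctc
Cdk1: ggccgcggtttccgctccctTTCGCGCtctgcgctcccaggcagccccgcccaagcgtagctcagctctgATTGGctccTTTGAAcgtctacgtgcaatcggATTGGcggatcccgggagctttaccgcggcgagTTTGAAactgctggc

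All 10 progenitor markers lay above the array median on every array, and their levels differed between groups. Their log2 summed level was 14.74 on treated arrays and 15.32 to 15.49 in NUP98-JARID1A lines. It was 15.23 in MLL-AF9 and 15.48 to 15.61 in untreated RH-RAS lines. Levels of other cell type markers moved with the groups too. The log2 summed level of 11 monocyte markers was 15.42 to 15.48 on treated arrays, 14.97 to 15.44 in NUP98-JARID1A lines, 14.11 in MLL-AF9 and 13.03 to 14.04 in untreated RH-RAS lines. That of 11 neutrophil markers was 13.42 to 13.51 on treated arrays, 15.40 to 16.75 in NUP98-JARID1A lines, 16.38 in MLL-AF9 and 12.50 to 13.37 in untreated RH-RAS lines. Both sums stood above every untreated line on treated arrays, in NUP98-JARID1A lines and in MLL-AF9. A summed level follows its brightest genes and need not hold for the other markers of a list. On treated arrays 2 of 11 neutrophil markers were higher, and 7 lay below the array median on both. Prtn3 read 13.01 and 12.90 there, against 10.86 to 12.20 untreated, while Mpo read 11.52 and 11.45, against 11.72 to 12.43. Of 8 T and NK cell markers the summed level was 9.04 to 9.05 on treated arrays, 9.85 to 11.94 in NUP98-JARID1A lines, 10.40 in MLL-AF9 and 10.27 to 11.46 in untreated RH-RAS lines. Nkg7 alone read 11.82, 11.48 and 8.98 in NUP98-JARID1A lines 1 to 3, where 2 of 7 tested markers were lower and none higher. Stromal markers, 8 in all, summed to 8.58 to 8.63 on treated arrays, 9.34 to 10.92 in NUP98-JARID1A lines, 9.68 in MLL-AF9 and 8.52 to 8.63 in untreated RH-RAS lines. Fn1 alone read 10.46, 8.06 and 10.44 in NUP98-JARID1A lines and 8.80 in MLL-AF9, against 5.62 to 6.10 in untreated RH-RAS lines. Erythroid sums lay between 7.77 and 7.90 over all groups. B cell sums were 9.78 to 9.84 on treated arrays and 8.34 to 8.92 in NUP98-JARID1A lines. They were 9.11 in MLL-AF9 and 9.03 to 9.33 in untreated RH-RAS lines. Untreated line 4 stood apart from lines 1 to 3 in some markers, at 10.34 for the monocyte marker Cd14, against 6.77 to 7.84, and at 7.91 for the granzyme gene Gzma, against 10.02 to 10.50. The part of cell type and maturity in the results below was not tested.

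**Figure D1:**
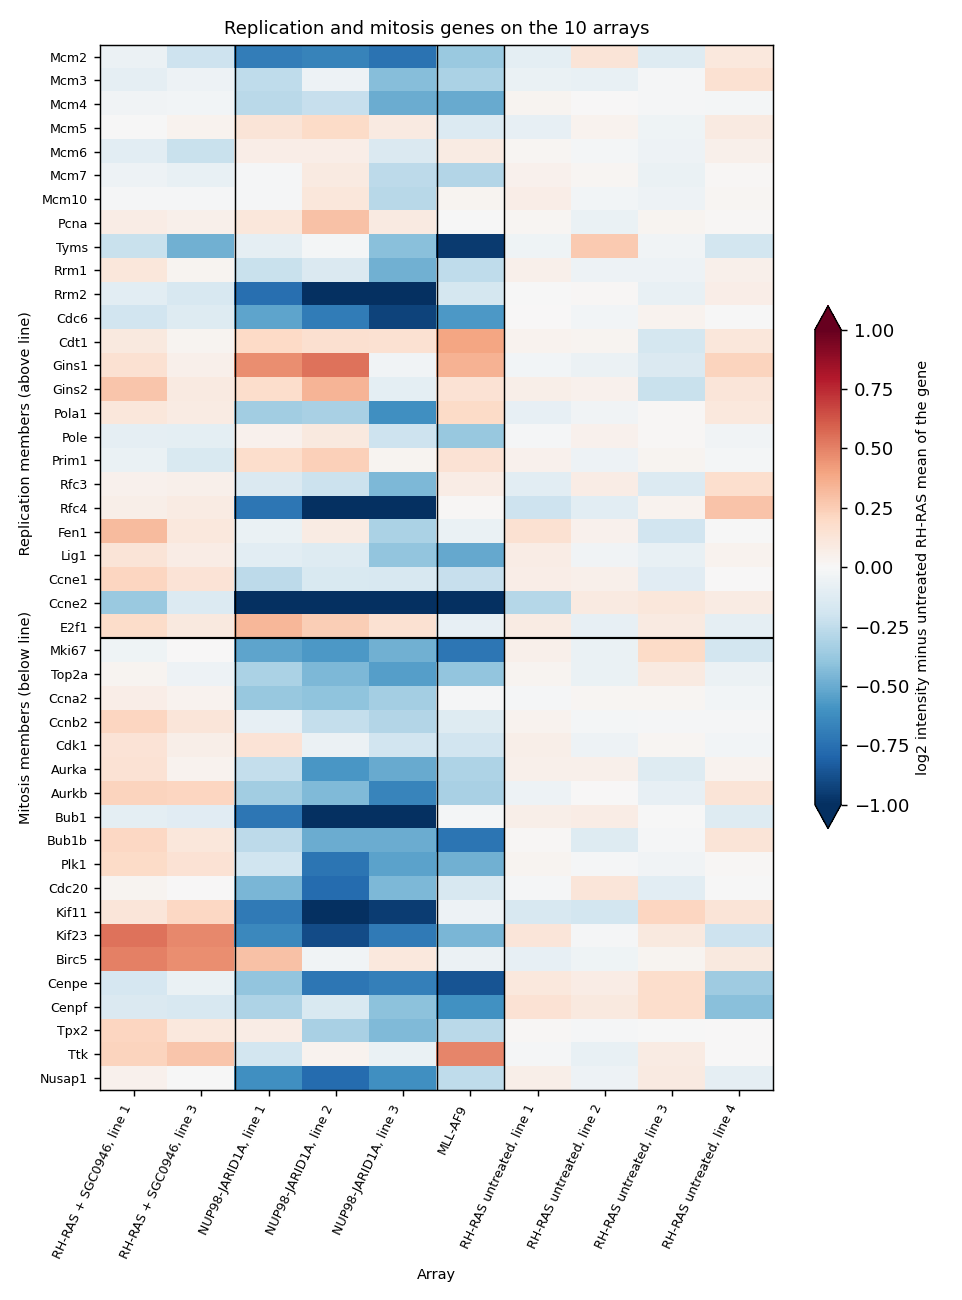
Each row is 1 of the 44 genes and each column 1 of the 10 arrays, and the colour is the log2 intensity minus the gene's mean over the 4 untreated RH-RAS lines, limited to between -1 and 1. Blue dominates the mitosis rows of the NUP98-JARID1A columns, where 18 of 19 genes averaged below the RH-RAS mean, while the treated columns stay pale.

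Under SGC0946 few of the replication and mitosis genes moved past the spread between arrays. Of 44 members, 1 passed the test, or 2.27%, where 12% of all 11993 genes did, 6.84% as higher and 5.12% as lower (limma, adjusted p under 0.05). Blocked by line, no member and 866 genes passed. Fits without 1 of the 6 RH-RAS arrays are described at the end, and the call did not hold in them. Without an array of line 1 or 3, such a fit has 1 array on a side. The arrays of the other groups were not left out. Changes ran from -0.32 to 0.51 on the log2 scale, while the widest changes over all genes were -5.25 and 5.56. At an unadjusted p under 0.05, 3 of 44 members passed, all of them mitosis genes, beside 3211 of all 11993 genes. Each change is the mean over lines 1 and 3 of treated minus untreated and rests on 2 arrays against 2. Both treated arrays stood above both untreated arrays of these lines for 20 members and below for 13, beside 35.9% and 30.3% of all genes.

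None of the 25 replication genes passed, also at an unadjusted p under 0.05, and their median change was 0.04, beside 0.02 over all genes. The intervals (95%) of their changes reached from -0.99 for Ccne2 to 0.66, so changes of more than 2-fold were outside every interval, and smaller ones were not. The MCM helicase genes ran from -0.15 to 0.08. Mcm2, a helicase subunit, read 11.94 and 11.79 on treated arrays of lines 1 and 3, against 11.90 and 11.87 untreated (change -0.02 ± 0.09, SE, limma adjusted p = 0.948). The sliding clamp Pcna read 13.78 and 13.75 treated, against 13.72 and 13.73 untreated. For both genes the distance between treated and untreated was about as small as that between the lines.

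Genes of origin licensing and firing had a median change of 0.14. Gins2, a GINS subunit, read 10.27 and 10.08 treated, against 10.05 and 9.77 untreated (0.26 ± 0.17, limma adjusted p = 0.375), and treated arrays stood above the untreated ones of the same lines. The GINS subunit Gins1 read 10.77 and 10.67 treated, against 10.60 and 10.48 untreated. Cdc6, which loads the MCM helicase, read 10.91 and 10.97 treated, against 11.10 and 11.13 untreated (-0.18 ± 0.13, limma adjusted p = 0.466). It stood lower in both lines without passing.

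Among fork genes, the flap nuclease gene Fen1 read 12.58 and 12.37 treated, against 12.42 and 12.07 untreated (0.23 ± 0.17), with overlap of the groups. Of the nucleotide supply genes, thymidylate synthase Tyms read 6.56 and 6.31 treated, against 6.75 and 6.75 untreated (-0.31 ± 0.19, limma adjusted p = 0.354). The ribonucleotide reductase subunit Rrm2 read 12.87 and 12.82 treated, against 12.97 and 12.91 untreated (-0.10 ± 0.19). Both were lower in both lines and neither passed. Among G1/S regulators, the cyclin E gene Ccne1 read 10.38 and 10.30 treated, against 10.22 and 10.05 untreated (0.20 ± 0.10, limma adjusted p = 0.257). E2f1, an activating E2F factor, read 9.06 and 8.98 treated, against 8.96 and 8.97 untreated.

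The mitosis genes had a median change of 0.13, and 13 of 19 were above 0, beside 53.2% of all genes. Birc5, the survivin subunit of the chromosomal passenger complex, was the 1 member that passed. It read 12.02 and 11.98 on treated arrays, against 11.44 and 11.54 untreated in the same lines, and 11.48 and 11.61 in untreated lines 2 and 4. Both treated arrays stood above all 4 untreated lines. The change was 0.51 ± 0.13, with an interval from 0.22 to 0.81 (limma adjusted p = 0.0412). Blocked by line, Birc5 did not pass (adjusted p = 0.0764), nor when any 1 of the 6 RH-RAS arrays was left out, and over 14 alternatives its adjusted p ran from 0.0127 to 0.212.

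Kif23 and Aurkb, the mitosis members with the next largest rises, are among the 13 of 19 mitosis genes above 0. Kif23, a motor of the central spindle, read 11.24 and 11.17 treated, against 10.81 and 10.79 untreated (0.41 ± 0.12, limma adjusted p = 0.0680). The passenger kinase Aurkb read 11.09 and 11.08 treated, against 10.81 and 10.79 untreated (0.29 ± 0.12, limma adjusted p = 0.173). For both genes the treated arrays stood above all 4 untreated lines, and neither passed here. Kif23 passed in 3 of 14 alternatives, with adjusted p from 0.0196 to 0.288 over all of them.

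Of 6 kinetochore and spindle checkpoint genes 3 were above 0 and 3 below, and none passed. Cenpf, a kinetochore protein, read 10.45 and 10.43 treated, against 10.74 and 10.77 untreated (-0.32 ± 0.17, limma adjusted p = 0.296). Cenpe, a kinetochore motor, read 10.06 and 10.16 treated, against 10.34 and 10.41 untreated (-0.26 ± 0.17). Neither passed, and untreated line 4 read 10.18 for Cenpf and 9.88 for Cenpe, below both treated arrays. Proliferation markers were close to untreated levels. Mki67 read 12.65 and 12.69 treated, against 12.75 and 12.89 untreated (-0.15 ± 0.10). The topoisomerase gene Top2a read 13.07 and 12.99 treated, against 13.07 and 13.13 untreated (-0.07 ± 0.10). Cdk1, the kinase that starts mitosis, read 12.01 and 11.93 treated, against 11.93 and 11.89 untreated (0.06 ± 0.12). Treated arrays of these genes stood just outside the range of untreated lines 1 and 3, and those of Mki67 and Top2a lay inside the range of all 4 untreated lines. The Polo kinase gene Plk1 read 10.98 and 10.92 treated, against 10.81 and 10.75 untreated (0.17 ± 0.16).

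**Figure D2:**
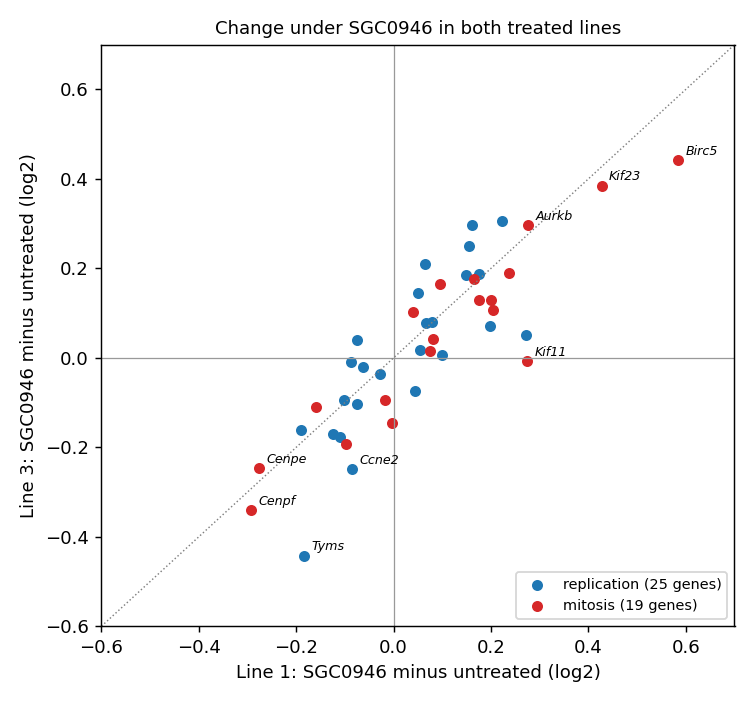
The change under SGC0946 (log2, treated minus untreated) in line 1 on the horizontal axis and in line 3 on the vertical axis, 1 point for each gene, with blue for replication, red for mitosis and a dotted line where both are equal. Of 44 genes, 25 were higher in both lines, 16 lower in both and 3 opposite, and Birc5 and Kif23 lie furthest up the diagonal.

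Dimmer detected probe sets stood further out for a few members, at 0.85 for Tyms, 0.61 for Gins1, -0.89 for Top2a and -0.77 for Ttk, against the sign of the probe set used for Tyms and Ttk. Both lines moved the same way for 41 of the 44 members. Over all genes 5134 were higher in both lines, 4424 lower in both and 2428 opposite. On the same arrays 10 of 11 monocyte markers were higher and 7 of 10 progenitor markers lower.

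Outside the 44 members, few other replication and mitosis genes passed. Among 38 other replication genes tested, 1 was higher (2.63%) and none lower, beside 6.84% and 5.12% of all genes, with a median of -0.03. This was Asf1b, a histone chaperone at the fork, which read 11.19 and 11.08 treated, against 10.69 and 10.55 untreated (0.52 ± 0.11, limma adjusted p = 0.0258). Among 59 other mitosis genes 3 were higher (5.08%, beside 6.84% of all genes) and none lower. Their median was 0.10, with 46 above 0. The mitotic kinase gene Melk read 10.18 and 10.20 treated, against 9.21 and 9.33 untreated (0.92 ± 0.17, limma adjusted p = 0.0170). Foxm1, a transcription factor of G2 and mitosis genes, read 9.13 and 9.14 treated, against 8.40 and 8.66 untreated (0.61 ± 0.14, adjusted p = 0.0319). Racgap1, which partners Kif23 in the central spindle, read 10.46 and 10.46 treated, against 9.97 and 9.94 untreated (0.51 ± 0.12, adjusted p = 0.0320). Blocked by line, Asf1b and Melk passed, and Foxm1 and Racgap1 did not (adjusted p = 0.0542 and 0.0645).

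Of 30 cell cycle inhibitors and G1 regulators, 5 were lower (16.7%, beside 5.12% of all genes) and none higher. Their changes ran from -0.91 to 1.16, with a median of -0.02. Cyclin G2, Ccng2, read 10.78 and 10.72 treated, against 11.57 and 11.76 untreated (-0.91 ± 0.21, limma adjusted p = 0.0313). Untreated line 4 read 10.74 for Ccng2, at the treated level, and the gene did not pass against all 4 untreated lines (adjusted p = 0.118). Mdm2, a negative regulator of p53, read 9.27 and 9.28 treated, against 9.86 and 9.90 untreated (-0.60 ± 0.10). The growth regulator Myc read 11.40 and 11.32 treated, against 11.84 and 11.94 untreated (-0.53 ± 0.13). The G1 kinase Cdk6 read 12.58 and 12.57 treated, against 13.01 and 13.11 untreated (-0.48 ± 0.09). Treated arrays of Mdm2, Myc and Cdk6 stood below all 4 untreated lines. Cdk2, the kinase partner of cyclin E, was the fifth (-0.38 ± 0.10), named after its value was seen. Blocked by line, Cdk6 and Mdm2 passed, Ccng2 and Myc did not (adjusted p = 0.0625 and 0.0727). Of Asf1b, Melk, Foxm1, Racgap1, Ccng2, Mdm2, Myc and Cdk6, none of the 8 passed when any treated or untreated array of lines 1 or 3 was left out.

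In NUP98-JARID1A lines, members of both classes were lower than in untreated RH-RAS lines, and more of the mitosis genes than of the replication genes. Of 44 members 21 were lower and none higher, in a comparison where 51% of all genes were called, 32.5% as higher and 18.5% as lower (limma, adjusted p under 0.05). The median difference was -0.28 over the members and 0.10 over all genes. In bulk RNA, fewer cells in a phase of the cycle and less RNA per cell cannot be told apart. Each p-value here reflects only how far these arrays spread within their groups, which may be technical.

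Of the 25 replication genes 8 were lower (32.0%, beside 18.5% of all genes), with a median of -0.18. Among the G1/S regulators, the cyclin E gene Ccne2 read 9.37, 8.27 and 8.35 in NUP98-JARID1A lines 1 to 3, against 10.44, 10.82, 10.84 and 10.81 in RH-RAS lines 1 to 4. The groups did not overlap, and on the probe sets used Ccne2 had the largest difference of any member at -2.06 ± 0.27, or 4.18-fold (limma adjusted p = 0.000718). With the mean of all probe sets of a gene, Cenpe was further away at -3.03. The other cyclin E gene, Ccne1, read 9.90, 10.01 and 10.00 in NUP98-JARID1A lines, against 10.05 to 10.22 in RH-RAS lines (-0.19 ± 0.08, adjusted p = 0.0795), and did not pass. E2f1 read 9.21, 9.12 and 9.03, against 8.79 to 8.97, above RH-RAS in every line (0.24 ± 0.09, limma adjusted p = 0.0515). It passed as higher in 5 of 14 alternatives.

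Nucleotide supply genes were lower, with 2 of 3 past the test. Rrm2 read 12.22, 11.83 and 11.56 in NUP98-JARID1A lines, against 12.97, 12.99, 12.91 and 13.05 in RH-RAS lines (-1.11 ± 0.15, limma adjusted p = 0.000803). Its partner subunit Rrm1 read 12.17, 12.25 and 11.92, against 12.35 to 12.45 (-0.28 ± 0.10, adjusted p = 0.0441). Neither gene's groups overlapped. The call of Rrm1 was lost when any 1 of the RH-RAS lines, or NUP98-JARID1A line 1 or 3, was left out. Tyms read 6.69, 6.76 and 6.37, against 6.60 to 7.04, with overlap (-0.18 ± 0.14).

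Of 5 licensing and firing genes 1 was lower. Cdc6 read 10.58, 10.41 and 10.18 in NUP98-JARID1A lines, against 11.10, 11.08, 11.13 and 11.10 in RH-RAS lines (-0.72 ± 0.10, limma adjusted p = 0.00105). Cdt1, which works with Cdc6 in licensing, read 12.60, 12.56 and 12.55, against 12.22 to 12.51 (0.17 ± 0.09, adjusted p = 0.148), so its groups stood apart in the other direction without passing. Gins1 read 11.09, 11.16 and 10.59, against 10.48 to 10.85 (0.33 ± 0.16, adjusted p = 0.125). Line 3 lay inside the RH-RAS range for Gins1, and the gene passed as higher without that line. The other detected probe sets of Cdt1 and Gins1 were at -0.34 and -0.26, so the direction of both turns with the probe set. Gins2 and Mcm10 were at 0.14 and -0.06 and did not pass.

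In the MCM helicase, Mcm2 and Mcm4 were lower and 4 subunits did not pass. Mcm2 read 11.31, 11.33 and 11.26 in NUP98-JARID1A lines, against 11.90, 12.12, 11.87 and 12.10 in RH-RAS lines (-0.70 ± 0.09, limma adjusted p = 0.000747). Mcm4 read 12.59, 12.63 and 12.36, against 12.83 to 12.89 (-0.33 ± 0.09, adjusted p = 0.0147). Mcm5, Mcm6 and Mcm7 had differences between -0.06 and 0.14, and Mcm3 was at -0.24 ± 0.11 (adjusted p = 0.105). Over all detected probe sets Mcm6 ran from -0.72 to -0.01 and Mcm3 from -1.19 to 0.94. Mcm7 ran from -0.30 to -0.06 and Mcm5 from 0.01 to 0.28. Subunits of 1 complex thus differed unequally on the probe sets used, and how far they differ depends on the probe set.

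At the fork, the clamp loader subunit Rfc4 read 10.07, 9.73 and 9.70 in NUP98-JARID1A lines, against 10.58, 10.69, 10.83 and 11.08 in RH-RAS lines (-0.96 ± 0.15, limma adjusted p = 0.00141). Pola1, the catalytic subunit of polymerase alpha, read 10.36, 10.38 and 10.09, against 10.62 to 10.81 (-0.43 ± 0.10, adjusted p = 0.00897). Both were lower in every line, and Pola1 lost its call with the mean of its probe sets, of which the other lay below every array median. Pcna, which Rfc4 helps to load, read 13.82, 13.99 and 13.79, against 13.63, 13.72, 13.73 and 13.71 in RH-RAS lines. Its groups stood apart with NUP98-JARID1A on top, and it did not pass (0.17 ± 0.08, adjusted p = 0.124). Fen1 read 12.20, 12.35 and 11.94, against 12.07 to 12.42 (-0.10 ± 0.12). Prim1, Pole, Rfc3 and Lig1 did not pass either, at 0.15, -0.02, -0.27 and -0.21.

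Of the 19 mitosis genes 13 were lower (68.4%, beside 18.5% of all genes), with a median of -0.44. Spindle motor and bundling genes were lower in all 3 cases. Kif11, the motor that separates spindle poles, read 9.98, 9.54 and 9.73 in NUP98-JARID1A lines, against 10.53, 10.50, 10.90 and 10.81 in RH-RAS lines (-0.93 ± 0.14, limma adjusted p = 0.00154). Kif23 read 10.05, 9.80 and 9.98, against 10.81, 10.68, 10.79 and 10.48 (-0.75 ± 0.11, adjusted p = 0.00116). The microtubule bundler Nusap1 read 11.41, 11.25 and 11.41, against 11.93 to 12.11 (-0.67 ± 0.08, adjusted p = 0.000618). None of the 3 overlapped between the groups.

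Of 6 kinetochore and checkpoint genes 4 were lower. The checkpoint kinase Bub1 read 10.62, 10.34 and 10.23 in NUP98-JARID1A lines, against 11.40, 11.41, 11.34 and 11.21 in RH-RAS lines (-0.94 ± 0.11, limma adjusted p = 0.000453). Bub1b, its relative in the checkpoint, read 10.58, 10.34 and 10.34, against 10.71 to 10.97 (-0.42 ± 0.10, adjusted p = 0.00959). The call of Bub1b was lost with the mean of its 3 probe sets (-0.20, adjusted p = 0.130), where the others were both at -0.09. Cdc20, the activator of the anaphase-promoting complex that the checkpoint holds back, read 11.85, 11.54 and 11.86, against 12.20 to 12.43 (-0.56 ± 0.11, adjusted p = 0.00381). On the probe sets used, every NUP98-JARID1A line was below every RH-RAS line for these genes. Cenpe read 9.84, 9.51 and 9.55, against 10.34, 10.31, 10.41 and 9.88 (-0.60 ± 0.15, adjusted p = 0.0129), and RH-RAS line 4 lay close to the NUP98-JARID1A lines. Cenpf was at -0.29 ± 0.16 (adjusted p = 0.164), with overlap through line 4. Cenpf passed without line 4 (-0.43, adjusted p = 0.0102), with the line number as a block (adjusted p = 0.0376), and with the mean of its probe sets (-1.21, adjusted p = 0.000174). The checkpoint kinase Ttk was at -0.07 ± 0.08.

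The Polo and Aurora kinase genes were lower. Plk1 read 10.59, 10.05 and 10.24 in NUP98-JARID1A lines, against 10.75 to 10.81 in RH-RAS lines (-0.49 ± 0.13, limma adjusted p = 0.0141). Aurkb read 10.52, 10.42 and 10.21, against 10.79, 10.81, 10.87 and 11.0 in RH-RAS lines (-0.48 ± 0.10), and its other probe set was at -1.27. The spindle pole kinase Aurka read 10.70, 10.36 and 10.44, against 10.81 to 10.99 (-0.44 ± 0.10). None of these kinases overlapped between groups, and the Aurora partners stood otherwise. Birc5 read 11.81, 11.48 and 11.62, against 11.44 to 11.61 (0.12 ± 0.10, adjusted p = 0.345), while the Aurka activator Tpx2 was at -0.23 ± 0.12 (adjusted p = 0.159). Birc5 was the only mitosis gene with a difference above 0.

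Both markers of cycling chromatin were lower. Mki67 read 12.17, 12.12 and 12.21 in NUP98-JARID1A lines, against 12.75, 12.63, 12.89 and 12.51 in RH-RAS lines (-0.53 ± 0.10, limma adjusted p = 0.00424). Top2a read 12.72, 12.59 and 12.49, against 12.97 to 13.13 (-0.44 ± 0.09, adjusted p = 0.00455). Cyclin A2, Ccna2, was lower (-0.38 ± 0.07, adjusted p = 0.00257), Ccnb2 was at -0.20 ± 0.08 (adjusted p = 0.0630), and Cdk1 read 12.01, 11.81 and 11.68, against 11.82 to 11.93 (-0.04 ± 0.09, interval -0.26 to 0.18). Cdk1 thus overlapped between groups while its partner Ccna2 stood lower.

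**Figure D3:**
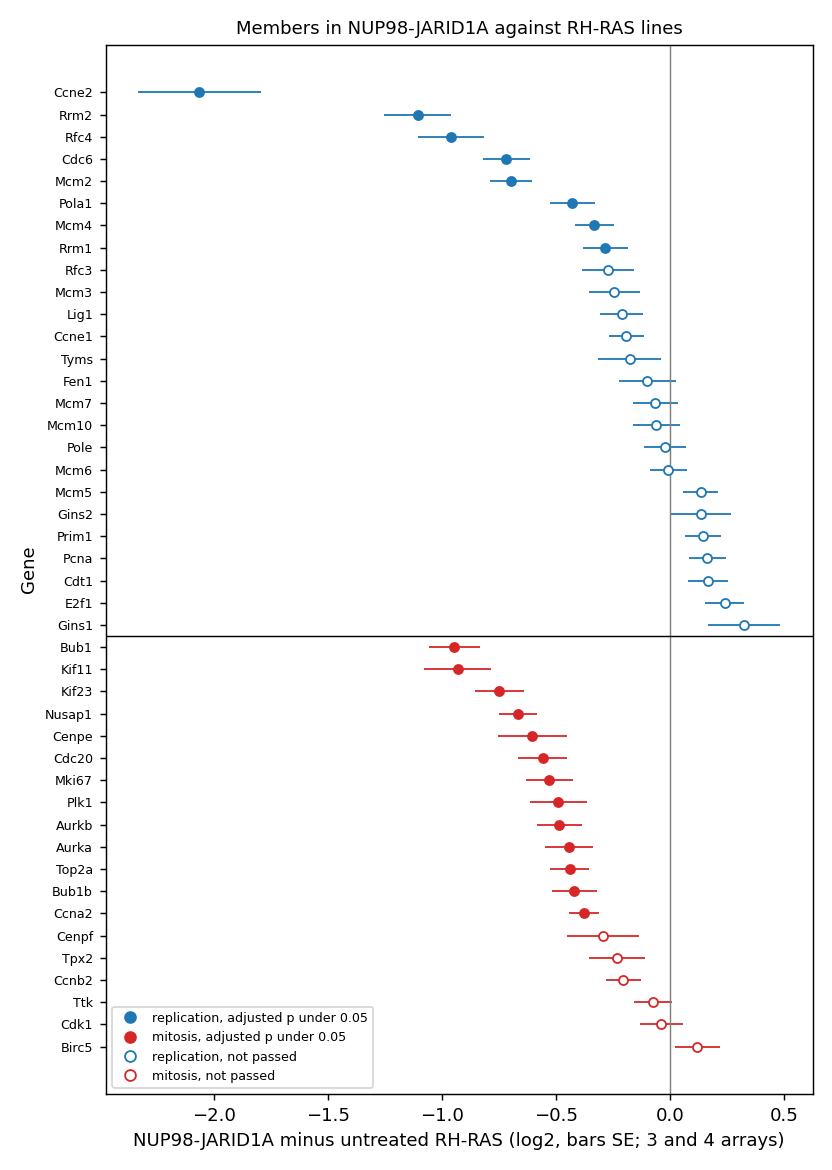
The difference NUP98-JARID1A minus untreated RH-RAS (log2, bars SE) for each member, replication genes above the line in blue and mitosis genes below it in red, with filled points where the adjusted p passed. Filled points number 8 in replication and 13 in mitosis, all left of 0.

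Groups that did not overlap gave a like picture over the members. NUP98-JARID1A lines stood entirely below RH-RAS lines for 25 members, 11 of replication and 14 of mitosis, and entirely above for 3, all of replication (Pcna, E2f1 and Cdt1). Over all genes 20.1% stood below and 34.8% above. On these arrays 10 of 11 neutrophil markers were higher, and of 10 progenitor markers 2 were higher and 4 lower. Among replication genes with an E2F-type match in the promoter window 5 of 14 were lower, and 1 of 6 without one. Among mitosis genes with a CHR-type match 9 of 13 were lower, and 2 of 3 without one. Over all genes 18.5% were lower, and their share with and without these letters was not computed. Members without a promoter entry, among them the lower genes Ccne2, Mcm4, Ccna2 and Aurkb, are not in these counts. A link between the letters and the differences was not tested.

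**Figure D4:**
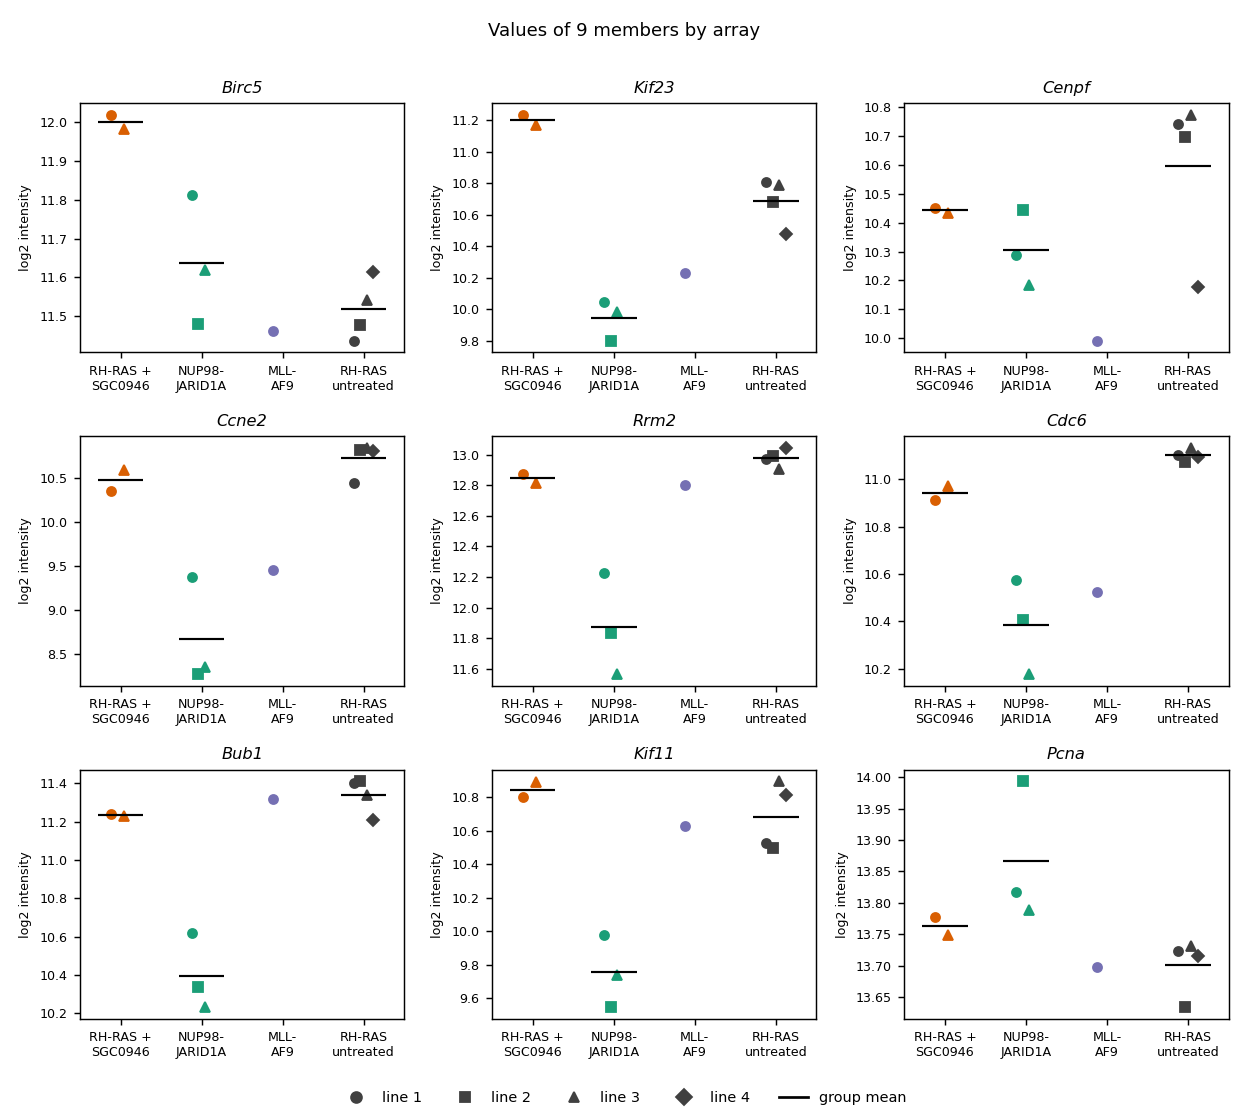
The log2 intensity of 9 members on each array, with groups along the horizontal axis, symbols for the line number and a bar at the mean of groups with more than 1 array. Birc5 and Kif23 stand highest on treated arrays, and Ccne2, Rrm2, Bub1 and Kif11 stand lowest in NUP98-JARID1A lines. Cdc6 stands below RH-RAS there as well, with the MLL-AF9 value inside the NUP98-JARID1A range.

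Of 59 other mitosis genes 30 were lower (50.8%) and 1 higher (1.69%) in NUP98-JARID1A lines, beside 18.5% and 32.5% of all genes. Their median was -0.33. The chromosome motor Kif18a read 7.27, 7.30 and 7.28, against 8.76, 8.83, 9.04 and 9.21 (-1.68 ± 0.12, limma adjusted p = 5.93e-05). Kifc1, a minus-end motor of the spindle, read 8.74, 8.53 and 8.33, against 10.12 to 10.24 (-1.64 ± 0.11). Depdc1a read 8.36, 7.48 and 7.94, against 9.19 to 9.78 (-1.64 ± 0.22). The groups of these genes lay far apart. Cdca2, a targeting subunit of protein phosphatase 1 on chromatin, was at -1.61 ± 0.11, though its other detected probe set was at -0.06. The higher gene was Troap (0.47 ± 0.09), a spindle protein gene named after its value was seen.

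Of 38 other replication genes 9 were lower (23.7%) and 5 higher (13.2%), beside 18.5% and 32.5% of all genes. Their median was -0.03. Dut, which removes dUTP, was at -0.75 ± 0.14 (limma adjusted p = 0.00325), the histone mRNA binding protein gene Slbp at -0.62 ± 0.08 and the polymerase epsilon subunit Pole2 at -0.61 ± 0.11. Other detected probe sets were at -0.02 for Dut and 0.24 for Slbp, and the mean over their probe sets did not pass (adjusted p = 0.0710 and 0.435). The clamp loader subunit Rfc2 read 11.89, 12.38 and 12.11, against 11.32 to 11.51, and was higher (0.72 ± 0.12, adjusted p = 0.00229). Rfc2 and Rfc4 belong to the same loader and stood on opposite sides.

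Of 30 cell cycle inhibitors and G1 regulators 12 were lower (40.0%) and 3 higher (10.0%), beside 18.5% and 32.5% of all genes. Their median was -0.09. Cyclin D1, Ccnd1, read 9.70, 10.56 and 9.51 in NUP98-JARID1A lines, against 11.45, 11.28, 11.70 and 11.98 in RH-RAS lines (-1.68 ± 0.27, limma adjusted p = 0.00193). The p53 target Cdkn1a, an inhibitor of cyclin-dependent kinases, read 10.28, 9.56 and 9.69, against 10.99 to 11.31 (-1.29 ± 0.18), and Ccng2 was at -1.28 ± 0.23. The inhibitor of Cdk4 and Cdk6, Cdkn2c, read 12.42, 11.98 and 12.36, against 10.75 to 10.92 (1.42 ± 0.12, adjusted p = 0.000123). An inhibitor and a cyclin of the same G1 step thus differed in opposite directions. The other higher genes were E2f4 (1.13 ± 0.11) and E2f2 (0.64 ± 0.19), both named after their values were seen, and the second detected probe set of E2f2 was at -0.27.

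The contrast between classes was present on each NUP98-JARID1A array. The median difference from the RH-RAS mean was -0.32, -0.50 and -0.50 over mitosis genes in lines 1 to 3, and -0.09, -0.02 and -0.32 over replication genes. The mitosis median was the lower one in every line, with mitosis minus replication from -0.48 to -0.18, and line 3 had the lowest replication median. On treated arrays the mitosis median was 0.14 in line 1 and 0.06 in line 3, and the replication median -0.00 and 0.03. Untreated RH-RAS lines spanned -0.01 to 0.03 for mitosis and -0.05 to 0.05 for replication genes. Without NUP98-JARID1A line 3 the replication median over the group was -0.06, and the mitosis median -0.40. Mitosis minus replication over the group was -0.37 without NUP98-JARID1A line 1, -0.17 without line 2 and -0.34 without line 3. The size of the contrast thus depends on single arrays.

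**Figure D5:**
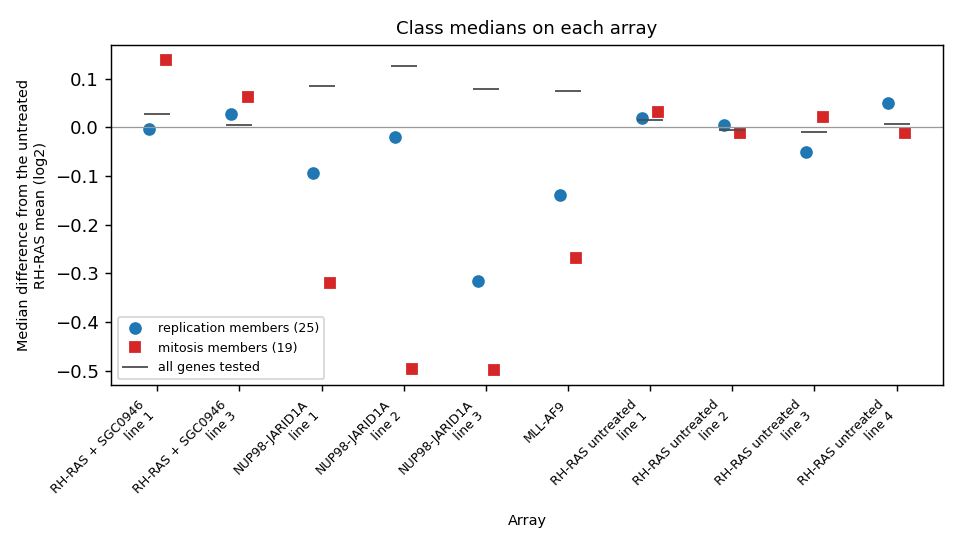
The median over 25 replication genes (blue circles) and 19 mitosis genes (red squares) of the log2 difference from the untreated RH-RAS mean, for each array, with the median over all genes tested as a dash. Mitosis medians of the 3 NUP98-JARID1A lines lie between -0.50 and -0.32, below those of every RH-RAS array.

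The MLL-AF9 line has 1 array and no replicate, so its values are a description without a test. Of 44 members 34 lay below the RH-RAS mean, with a median of -0.21, beside 0.07 over all genes. MLL-AF9 lay below all 4 RH-RAS lines for 27 members, 13 of replication and 14 of mitosis, and above all 4 for 7, while over all genes 31% stood below and 44.6% above. On the probe sets used, a difference of at least 1 was reached by 1 member, beside 13% of all genes. Dimmer detected probe sets of the members ran from -2.59 for Kif23 to 0.59 for Mcm10. The median was -0.27 over mitosis genes, 18 of 19 below 0, and -0.14 over replication genes, 16 of 25 below 0.

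On the probe sets used, the replication genes furthest from RH-RAS were Ccne2, Tyms and Cdc6. Ccne2 read 9.45 in MLL-AF9, against 10.44 to 10.84 in RH-RAS lines (difference -1.28), just above the NUP98-JARID1A lines at 8.27 to 9.37. Tyms read 5.82, against 6.60 to 7.04 (-0.96), below the NUP98-JARID1A lines as well. That reading lies close to the array medians, and the other detected probe set of Tyms was at 0.10. Cdc6 read 10.53, against 11.08 to 11.13 (-0.58), inside the NUP98-JARID1A range. The NUP98-JARID1A lines, set against the same RH-RAS arrays, were at -2.06 for Ccne2, -0.18 for Tyms and -0.72 for Cdc6. Rrm2 and Rfc4 read 12.80 and 10.81 in MLL-AF9, at -0.18 and 0.01, where the NUP98-JARID1A lines were at -1.11 and -0.96. Other probe sets of Rrm2 were at -0.98 and -0.41 in MLL-AF9, further below RH-RAS.

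Among mitosis genes Cenpe read 9.38 in MLL-AF9, against 9.88 to 10.41 in RH-RAS lines (-0.86). Bub1b read 10.10, against 10.71 to 10.97 (-0.73), and the proliferation marker Mki67 read 11.97, against 12.51 to 12.89 (-0.72). All 3 lay below the NUP98-JARID1A lines too. Bub1 and Kif11 read 11.32 and 10.63, inside the RH-RAS ranges, at -0.02 and -0.05. Ttk stood above RH-RAS, at 10.42, against 9.85 to 10.02 (0.49). In NUP98-JARID1A lines, with the same RH-RAS arrays as controls, Bub1 and Kif11 were at -0.94 and -0.93 and Ttk at -0.07. These distances depend on the probe set. In MLL-AF9 the other one of Bub1 was at -0.62, those of Kif11 were at -1.86 and -0.26, and that of Ttk was at -0.94, the opposite direction.

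No member in untreated line 4 was both outside the range of lines 1 to 3 and at least 1 from their mean. Over all genes this held for only 1.80% (216 genes). Line 4 lay outside the range of lines 1 to 3 for 25 of 44 members, beside 63.4% of all genes. Its median from lines 1 to 3 was 0.07 over replication genes, 18 of 25 above 0, and -0.02 over mitosis genes. The furthest replication genes in line 4 were Rfc4 (11.08, against 10.58 to 10.83), Gins1 (10.85, against 10.48 to 10.60) and Tyms (6.60, against 6.75 to 7.04). The furthest mitosis genes were Cenpf (10.18, against 10.70 to 10.77), Cenpe (9.88, against 10.31 to 10.41) and Kif23 (10.48, against 10.68 to 10.81). Both kinetochore genes were thus lower in line 4, at -0.56 and -0.48, while Bub1b of the checkpoint was at 0.18.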

How the data were processed

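Total RNA of 10 cultures was hybridised to Affymetrix mouse expression arrays, 1 per sample. The deposited values are log2 intensities made by the authors with RMA, per the submitters' processing notes, and the sources used here give no version, software or genome build. Array medians lay between 5.72 and 5.82, and no further normalisation was applied. RMA compresses low intensities. Precision is limited by how few arrays there are.

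Of 45101 probe sets 34958 had 1 gene symbol. Each of 18194 genes took its probe set with the highest mean, and 11993 genes above the array median on at least 2 arrays were tested. Of the 44 members 34 had several probe sets. Levels of different probe sets were not compared.

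limma 3.58.1 in R 4.3.3 (lmFit, eBayes) gave log2 differences, SE and Benjamini-Hochberg adjusted p over 11993 genes, with a threshold of 0.05. The fits were tested on simulated data. SGC0946 was fitted on all 10 arrays with 5 coefficients, as treated minus untreated lines 1 and 3, so the other arrays enter the spread. NUP98-JARID1A was set against RH-RAS on 8 arrays. By their labels, treated and untreated arrays come from the same lines. Their line 1 minus line 3 differences correlated at r = 0.29 across genes, which are not independent replicates. The SGC0946 fit reported here has no block for the line, so its SE, intervals and adjusted p do not use this pairing. The fit blocked by line is given as an alternative. For classes and lists, counts and medians are given with no test.

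The members and lists were chosen with earlier results of these data known. Genes named with values were members past the threshold (up to 12 per comparison), the 4 of each class with the largest change (3 for single arrays), 12 markers always named, and up to 4 genes per other list. Alternatives covered probe set choice, filters, array medians, the prior, blocks, the controls and leaving out arrays.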

Additional observations from a re-analysis of the deposited data

Results flagged for a closer look

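Among the 4 untreated RH-RAS lines, Cenpf in line 4 read 10.18, against 10.70 to 10.77 in lines 1 to 3, a gap of 0.869 of the range, past Dixon's 95% limit for 4 values. Ccne2 in line 1 read 10.44, against 10.81 to 10.84 in lines 2 to 4, with a gap of 0.920 of the range. Of 44 members 4 had such a line, and chance gives about 1 in 20. Under SGC0946, Mcm2 was at 0.043 in line 1 and -0.074 in line 3, and Kif11 at 0.27 in line 1 and -0.0077 in line 3. These opposite signs between lines were not tested, and neither gene passed over both lines.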

How the results depend on the processing

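With SGC0946, the count of members past the threshold was 1 as reported. It was 0 with no filter on low values, 0 with the line as a replicate block, 0 whichever of the 6 RH-RAS arrays was left out, and 2 with array medians subtracted, with all 4 untreated lines as control or with the spread of the 6 RH-RAS arrays, where Kif23 joined Birc5. Over all genes 866 passed with the block, 2745 with the spread of the 6 arrays and 28 to 1482 without 1 array. The replication median was 0.092 with array medians subtracted and 0.011 to 0.059 without 1 array. The mitosis median was 0.086 with the mean of probe sets, 0.19 with array medians subtracted, 0.10 against all 4 lines and 0.061 to 0.13 without 1 array.

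For NUP98-JARID1A, leaving out 1 line gave 20 to 22 members, 5121 to 5899 genes, 7 to 9 replication and 13 to 15 mitosis genes lower, a replication median of -0.21 to -0.057 (-0.057 without NUP98-JARID1A line 3, -0.090 without RH-RAS line 2) and a mitosis median of -0.53 to -0.38. With array medians subtracted the class medians were -0.13 and -0.40. With the mean of probe sets the mitosis median was -0.52, and its distance from the replication median -0.33 in place of -0.27. That distance was -0.17 without NUP98-JARID1A line 2, -0.34 without line 3, and -0.37 without line 1 or without RH-RAS line 2. Line numbers do not pair these groups (same-number r of -0.05, -0.02 and 0.07), and lines 1 and 2 did not correlate best with their own number. With the number as a replicate block 19 members and 5 replication genes passed, Mcm4, Pola1 and Rrm1 dropping out and Cenpf joining. The block changed no other member's call. For MLL-AF9, 3 members were at least 1 away with the mean of probe sets and 1 to 2 without 1 RH-RAS line (2 without line 4). The medians were -0.20 and -0.41 with the mean of probe sets, and -0.17 to -0.12 and -0.28 to -0.26 without 1 line.

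Signs reversed for genes that passed no test. With SGC0946 Mcm2 was at 0.041 with array medians subtracted and -0.090 to 0.059 without 1 array, E2f1 at -0.017 and Nusap1 at 0.025 with the mean of probe sets, and Nusap1 at 0.017 against all 4 lines. Without 1 array Ccne2 ran from -0.37 to 0.034 (above 0 without RH-RAS line 3) and Kif11 from -0.052 to 0.32 (below 0 without RH-RAS line 1). For NUP98-JARID1A, Ccne1 was at 0.012 with the mean of probe sets and Cdk1 at 0.0075 with array medians subtracted. Without NUP98-JARID1A line 3, Cdk1 was at 0.040 and Fen1 at 0.011, and their lowest values without 1 line were -0.12 and -0.19. The causes were not tested. Where a left-out array leaves 1 treated or untreated array, it is assumed to vary like the others. With 1 array per culture, dim or saturated probes and unknown batches cannot be assessed.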

Other observations

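Dimmer probe sets of the same genes were often further apart than the brightest one in the comparison of NUP98-JARID1A with untreated RH-RAS lines. Of 32 members with several detected probe sets, 25 had a dimmer one with the larger absolute difference, and the median absolute difference was 0.63 over the dimmer and 0.29 over the brightest probe sets. The second probe set of Cenpe read 4.23, 4.85 and 4.08 in NUP98-JARID1A lines, against 9.18, 9.63, 10.43 and 10.10 in RH-RAS lines (-0.60 on the probe set used). A dimmer probe set of Cenpf read 4.63, 4.99 and 4.86, against 7.87, 7.72, 8.52 and 8.19, and another was at -0.10, beside -0.29 for the one used. On these dimmer probe sets of Cenpe and Cenpf, NUP98-JARID1A values lay below the array medians, so their differences have no exact size. Mcm4 was at -1.78 on its second probe set and -0.33 on the first, and Rrm1 at -1.11 and -0.28. Aurkb and Kif23 had dimmer probe sets at -1.27 and -1.68, beside -0.48 and -0.75. Mcm10 had dimmer probe sets at 1.43 and -0.70, beside -0.06 for the one used, so the direction depends on which is read. Signs agreed across detected probe sets for 26 of 32 members (not for Ccne1, Cdt1, Gins1, Mcm3, Mcm10 and Tyms), and for all 15 of the members called lower that had several. The probe sets used averaged above 12 for 13 members, near the top of an array range that ends at 14.83. Most were replication genes (Mcm3, Mcm4, Mcm5, Mcm6, Mcm7, Pcna, Rrm1, Rrm2, Cdt1 and Fen1), and the mitosis genes were Mki67, Top2a and Cdc20. The part of such high levels in these differences, and in the contrast between the classes, was not tested.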
